A study of Mus musculus with 6 samples.

Results

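The genes described here are 8 barrier genes of lining epithelia: the uroplakin genes Upk1a, Upk1b, Upk2, Upk3a and Upk3b, the small proline-rich genes Sprr1a and Sprr2f, and Nccrp1. They were chosen by symbol from the 55450 genes of a kidney count table, with the difference between its groups already in view, so their own differences between the groups are given as a description and carry no test. The kidneys came from male wild-type C57BL/6J mice, bought at 7 weeks of age and kept for 1 week before use. The 3 mice of the day-0 group are labelled control with 20% PEG, and the 3 mice of the day-21 group received adenine at 0.16 g/kg with potassium oxonate at 2.4 g/kg daily by gavage, a model of hyperuricemic nephropathy. Day-0 mice were killed at the start, so the treatment and 21 days of age cannot be told apart. The kidneys were divided before storage, and how much of the pelvis, which carries the urothelium, entered each RNA sample is not given in the sources used here.

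Urothelium is the layered epithelium of the renal pelvis, ureter and bladder. In its surface (umbrella) cells the tetraspanins Upk1a and Upk1b pair with Upk2 and Upk3a to build the rigid plaques that seal the apical membrane, and Upk3b, a relative of Upk3a, is made in mesothelium as well. The small proline-rich proteins are cross-linked by transglutaminases beneath the membrane of squamous cells as part of the cornified envelope, and several are induced in injured epithelia of other kinds. Nccrp1 is a member of the family of F-box-associated (FBA) domain proteins, whose better known members recognise glycoproteins, and it is abundant in stratified squamous epithelia.

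The 6 libraries held between 10963849 and 14333311 counts, and 3 counts, taken as the floor of detection, correspond to between 0.179 and 0.309 CPM (the gene's count relative to the TMM-scaled library size). This floor covers counting error only. As a check of the tissue, the summed level of 8 nephron markers lay between 13457 and 15288 CPM on day 0 and between 5352 and 5669 CPM on day 21, and 7 of the 8 fell, among them Slc34a1 and Lrp2. In bulk tissue, fewer cells of a type and less RNA per cell cannot be told apart. Over all genes, edgeR's quasi-likelihood test called 5822 of 16592 (35.1%), meaning a Benjamini-Hochberg adjusted p below 0.05 together with a change of more than 1.5-fold, with 19.6% higher and 15.5% lower on day 21, and the median log2 fold change was 0.03. With libraries scaled by their totals alone this median moved by 0.39 to 0.42, and 81.7% of calls were higher in place of 55.8%. No batch is given for the samples, and the p-values measure the spread between these mice.

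The barrier genes fell into 3 patterns. Sprr1a and Sprr2f stood higher on day 21 in each mouse, Nccrp1 stood lower in each mouse, and the uroplakins were low in both groups with wide spread among the mice. By the rule used for all genes, 4 of the 8 were called, Sprr1a and Sprr2f as higher and Nccrp1 and Upk1a as lower, beside 35.1% of all genes, a count that the choice of the genes had in view. The groups did not overlap for 3 of the 8, beside 57.1% of all genes (30.7% of all genes with day 21 above and 26.4% with day 21 below), a count that was likewise in view. The order of the levels changed with the groups. Per kb of exon, Nccrp1 led on day 0 at 35.7 CPM, ahead of Sprr1a at 8.69 CPM, and Sprr1a and Sprr2f led on day 21 at 44.8 and 35.7 CPM.

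**Figure D1:**
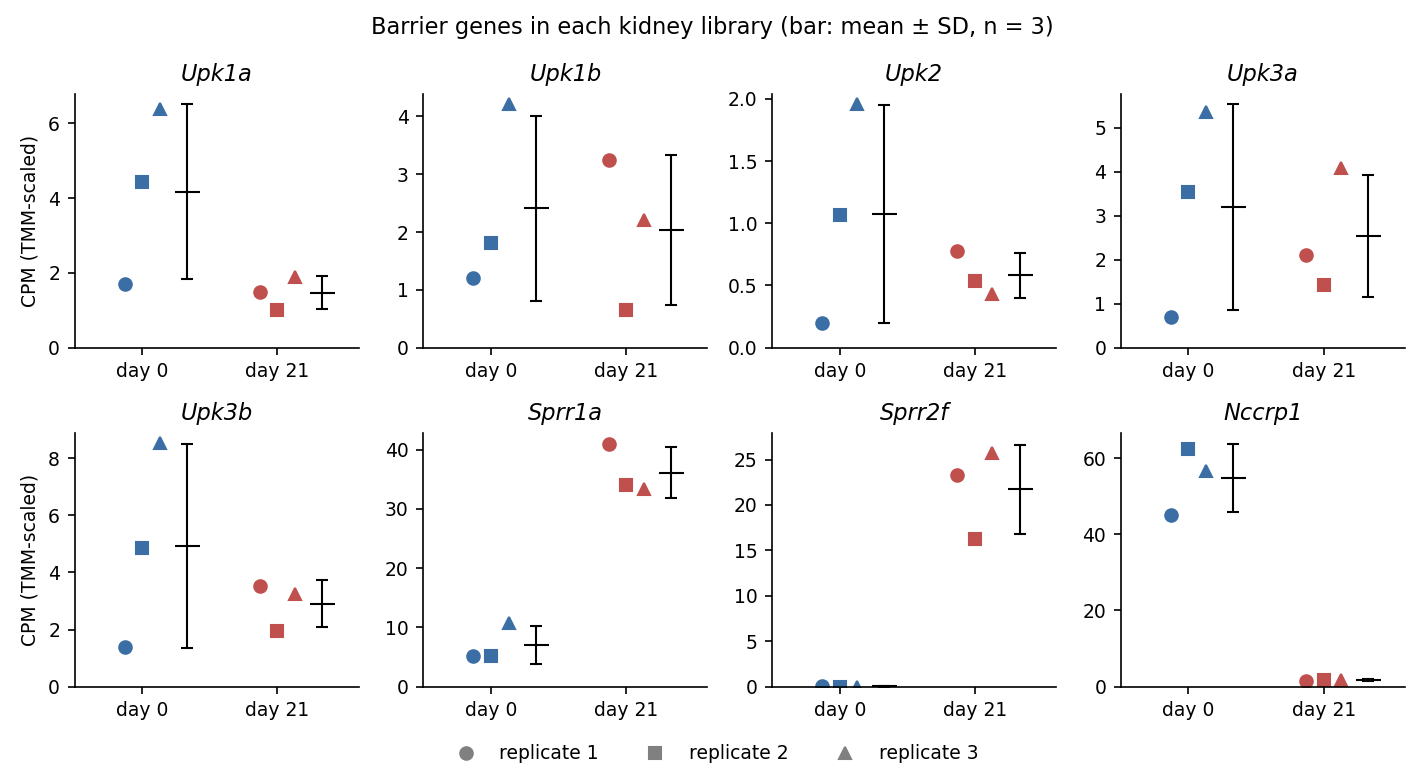
Level of each barrier gene in CPM, TMM-scaled, in each of the 6 libraries, with day 0 in blue, day 21 in red, 1 symbol per replicate number and a bar for the mean ± SD (n = 3). The groups stand apart for Sprr1a, Sprr2f and Nccrp1 and overlap for all 5 uroplakins, for which replicate 1 is the lowest of the day-0 mice.

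The promoters of the Sprr genes and of the uroplakins are shown first because both Sprr genes moved the same way and the uroplakins did not. RefSeq promoters (GRCm38.p6) were at hand for 5 of the 8 genes, namely Sprr1a, Sprr2f, Upk1a, Upk3a and Upk3b, and not for Upk1b, Upk2 or Nccrp1. The 250 bases before the annotated start were searched on both strands for TGANTCA, a loose form of the letters bound by AP-1. They were also searched for TATAAA, a form of the TATA box, and the matches of these motifs do not overlap. Capitals mark these matches, and Sprr2e is added as the closest relative of Sprr2f.
Sprr2f, chr3:92364937-92365186, plus strand: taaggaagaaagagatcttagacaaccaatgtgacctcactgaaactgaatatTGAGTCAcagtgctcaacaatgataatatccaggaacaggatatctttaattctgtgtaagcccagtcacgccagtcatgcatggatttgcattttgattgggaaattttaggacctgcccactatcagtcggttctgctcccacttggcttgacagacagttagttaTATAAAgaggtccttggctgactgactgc
Sprr1a, chr3:92485882-92486131, minus strand: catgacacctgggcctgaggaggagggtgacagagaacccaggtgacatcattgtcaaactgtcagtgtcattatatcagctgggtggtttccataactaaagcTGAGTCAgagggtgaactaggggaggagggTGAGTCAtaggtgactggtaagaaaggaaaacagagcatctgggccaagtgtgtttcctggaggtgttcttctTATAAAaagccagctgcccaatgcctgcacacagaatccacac
Sprr2e, chr3:92351893-92352142, plus strand: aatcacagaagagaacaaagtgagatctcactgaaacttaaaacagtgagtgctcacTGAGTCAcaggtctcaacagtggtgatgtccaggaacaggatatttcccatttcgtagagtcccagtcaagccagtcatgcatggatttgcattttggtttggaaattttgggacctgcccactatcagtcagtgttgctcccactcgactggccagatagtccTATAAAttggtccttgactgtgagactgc
Upk1a, chr7:30612735-30612984, minus strand: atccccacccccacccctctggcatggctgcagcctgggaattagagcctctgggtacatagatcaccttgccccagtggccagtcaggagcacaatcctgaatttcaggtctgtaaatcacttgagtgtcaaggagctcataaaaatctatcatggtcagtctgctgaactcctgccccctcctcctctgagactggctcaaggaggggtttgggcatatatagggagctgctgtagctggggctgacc
Upk3a, chr15:85016891-85017140, plus strand: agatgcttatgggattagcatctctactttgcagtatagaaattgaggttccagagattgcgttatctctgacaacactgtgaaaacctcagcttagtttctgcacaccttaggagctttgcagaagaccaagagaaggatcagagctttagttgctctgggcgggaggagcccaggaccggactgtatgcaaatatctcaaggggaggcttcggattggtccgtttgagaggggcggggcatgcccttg

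Counted so that -1 is the last base before the start, the match to TGANTCA began at -197 in Sprr2f, and a pair of matches began at -146 and -116 in Sprr1a. The same letters began at -193 in Sprr2e, which had 1 count in all 6 libraries together. TGANTCA occurred in 9 of the 14 Sprr promoters in the table (64.3%), against 6.75% of 32851 promoters of the same length. TATAAA occurred in 10 of the 14 (71.4%), against 12.4%. Several Sprr promoters are near copies, and those of Sprr2a1 and Sprr2a2 are the same, so the 14 are not independent of each other. The match counted in Sprr1b reads TGAATCA. The 7 promoters of other Sprr genes that held TGANTCA belonged to genes with between 0 and 2 counts in all, so the letters were shared by Sprr genes that were detected and Sprr genes that were not. None of the 4 uroplakin promoters in the table, Upk1a, Upk3a, Upk3b and the relative Upk3bl, held either motif in exact letters in this window. The printed Upk1a sequence holds tatata near its end, next to the start, which the exact search did not count. Of the further motifs searched, CCACCC, read by Krüppel-like factors and held by 28.1% of all promoters, occurred in Upk1a, Upk3b and Sprr1a and in 4 other Sprr promoters. AGATAA, read by GATA factors (9.99% of all promoters), occurred in Upk3a alone, and AACNNGTT, read by grainyhead-like factors (3.64%), in Upk3bl alone of these 18 promoters. These matches describe letters in a window and are not evidence of binding.

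Sprr2f (ENSMUSG00000050635.1, chr3:92365187-92366442 on GRCm38, plus strand) encodes a small proline-rich precursor of the cornified envelope. Day-0 counts were 1, 0 and 0, and day-21 counts were 330, 273 and 420. On day 0 the gene was under the floor of detection in each mouse, and on day 21 it was well above it in each. The day-21 level was 21.7 ± 4.90 CPM (SD, n = 3), at least 76.2-fold higher than a floor of 3 counts per library. The gene entered the comparison only through its day-21 counts.

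Sprr1a (ENSMUSG00000050359.7, chr3:92483952-92485895, minus strand) belongs to the other branch of the family and is known as an injury-induced gene of several tissues. It had 52, 62 and 104 counts on day 0 and 581, 571 and 545 counts on day 21. It was thus detected before treatment, unlike Sprr2f, and its lowest day-21 mouse lay above its highest day-0 mouse. Its level was 7.00 ± 3.20 CPM (SD, n = 3) on day 0 and 36.1 ± 4.25 CPM on day 21, a log2 fold change of 2.38 (SE 0.26), or 5.19-fold. Day-0 replicate 3 was the highest of its group, at 10.7 CPM beside 5.21 and 5.10 CPM.

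On day 21 the levels of Sprr1a and Sprr2f were close to each other per kb of exon. Sprr1a ranged from 41.4 to 50.9 CPM per kb and Sprr2f from 26.7 to 42.2 CPM per kb, so the pair overlapped in that order. Of the 16 genes of the family in the table, 8 had no count in any mouse (Sprr2b, Sprr2d, Sprr2h, Sprr2i, Sprr2j-ps, Sprr2k, Sprr3 and Sprr4), and with these included 12 had at most 3 counts in any mouse. The third gene to be detected was Sprr2g (ENSMUSG00000046203.11, chr3:92373915-92375229, plus strand), annotated as a polymorphic pseudogene, which lies 7473 bases beyond Sprr2f. It had 11, 4 and 2 counts on day 0 and 208, 171 and 194 counts on day 21. Like Sprr2f, Sprr2g needed its day-21 counts to enter the comparison. Sprr2g rose by 4.49 on the log2 scale (SE 0.42, adjusted p = 1.9e-05 edgeR's quasi-likelihood test, Benjamini-Hochberg), from 0.545 ± 0.485 CPM to 12.2 ± 2.27 CPM (SD, n = 3). Without day-0 replicate 1 its log2 fold change was 5.41.

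Sprr1a, Sprr2f and Sprr2g held between 82.5% and 97.0% of all counts of the family on day 0 and between 98.7% and 99.4% on day 21. The next in counts was Sprr2a3, with 2, 13 and 10 counts on day 0 and 6, 9 and 4 counts on day 21. Its value is uncertain, because other genes, among them Sprr2a1 and Sprr2a2, hold 61.1% of the words of 50 bases in its transcript. Sprr1b, the nearest counted gene on the lower-coordinate side of Sprr1a, lies 45163 bases from it. Sprr1b had 2 counts in 1 day-21 mouse and none in the other 5 libraries.

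**Figure D2:**
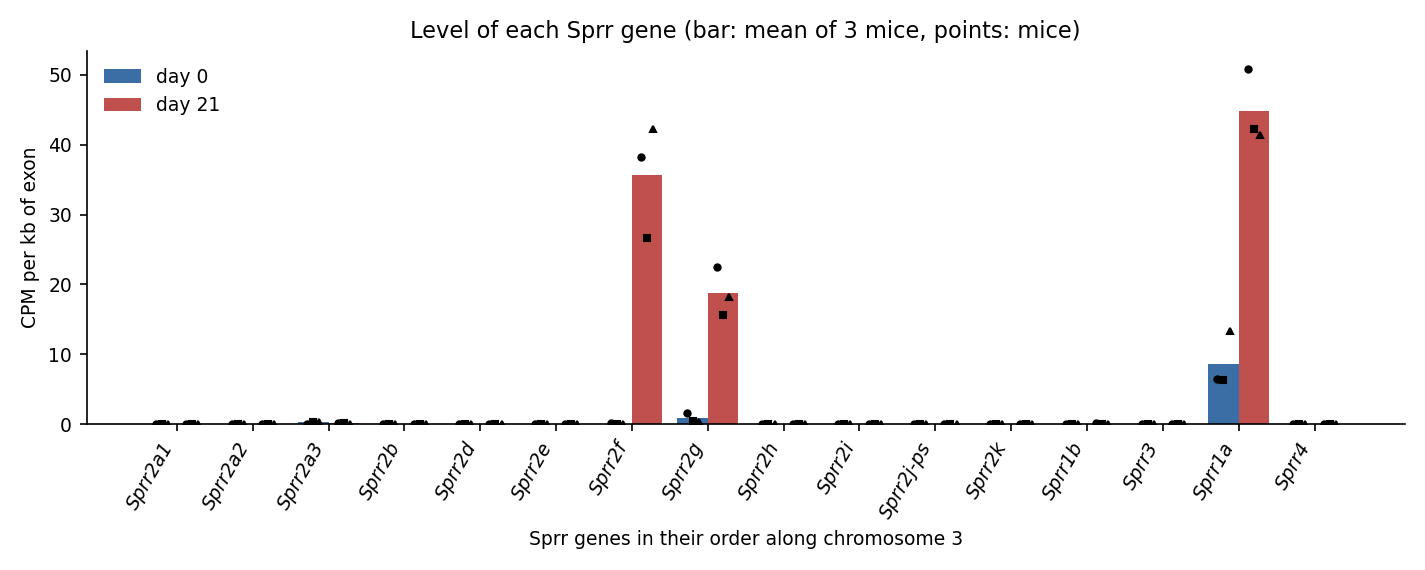
Level of each of the 16 Sprr genes in CPM per kb of exon, in their order along chromosome 3, with bars for the mean of 3 mice (day 0 blue, day 21 red) and points for single mice. Sprr2f, Sprr2g and Sprr1a stand out on day 21, at 35.7 CPM per kb for Sprr2f and 44.8 CPM per kb for Sprr1a, and Sprr1a has the tallest bar on day 0, at 8.69 CPM per kb.

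Because Sprr2 genes are near copies of each other, it was asked whether the reads of Sprr2f could belong to a relative. The first 90 coding bases (GENCODE M21 transcripts on GRCm38) are shown for Sprr2f and for the pair of relatives closest to it in the whole coding sequence, with 207 of 230 aligned bases identical for Sprr2e and 205 of 228 for Sprr2i. Capitals mark the bases that differ from Sprr2f.
Sprr2f, chr3:92365896-92365985, plus strand: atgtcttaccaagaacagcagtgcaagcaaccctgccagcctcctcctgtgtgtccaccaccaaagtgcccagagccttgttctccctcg
Sprr2e, chr3:92352864-92352953, plus strand: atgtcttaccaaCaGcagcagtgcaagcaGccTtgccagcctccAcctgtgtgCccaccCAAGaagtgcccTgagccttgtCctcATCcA
Sprr2i, chr3:92408716-92408805, plus strand: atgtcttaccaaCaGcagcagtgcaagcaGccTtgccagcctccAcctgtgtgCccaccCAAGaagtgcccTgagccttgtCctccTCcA

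In this stretch Sprr2e differs from Sprr2f at 16 bases and Sprr2i at 15. Of the 560 words of 50 bases in the Sprr2f transcript, 4 (0.714%) also occur in another gene, which is Sprr2e, and no such word of Sprr2g, Sprr1a, Nccrp1 or the uroplakins is shared. The reads were 150 bases long and paired. No exon base of the 8 genes lies in an exon of another annotated gene.

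Nccrp1 (ENSMUSG00000047586.3, chr7:28543596-28547254, minus strand) had 449, 759 and 551 counts on day 0 and 21, 31 and 30 counts on day 21. Of the 8 genes it was the most abundant on day 0 and had the smallest spread among the day-0 mice, with a ratio of highest to lowest level of 1.39 on day 0 and 1.25 on day 21. Its level was 54.7 ± 8.92 CPM (SD, n = 3) on day 0 and 1.72 ± 0.207 CPM on day 21, a log2 fold change of -4.98 (SE 0.19), or 31.5-fold lower. All 3 day-21 mice lay above the floor of detection, so the fold is a ratio of measured levels.

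Among the other FBA-domain genes, those called were higher on day 21. Of 4 tested, Fbxo2 and Fbxo6, which recognise glycoproteins with high-mannose sugars, rose (50%, beside 19.6% of all genes called higher). The median log2 fold change of the 4 was 0.64 beside 0.03 for all genes. Fbxo6 went from 20.6 ± 1.13 to 32.7 ± 3.68 CPM (SD, n = 3; log2 fold change 0.67, SE 0.13, adjusted p = 0.0022 edgeR's quasi-likelihood test, Benjamini-Hochberg). Fbxo2 gave 0.89 (SE 0.31, adjusted p = 0.036 by the same test) and lost its call under DESeq2, with a block for replicate number, and when any mouse other than day-0 replicate 2 was left out, with adjusted p-values from 0.052 to 0.16. Fbxo44 and Fbxo17 were not called, at -0.13 and 0.61.

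Nccrp1 lies inside the span of Samd4b on the same strand, without a shared exon base, and its nearest neighbour is Sycn, a zymogen granule protein, 1387 bases away. Sycn had 7, 8 and 8 counts on day 0 and none on day 21, too few to be tested. Of the 17 nearest or overlapping genes around the 8 barrier genes, 11 were tested and 4 called, beside 35.1% of all genes: 2 rose (Sprr2g and B4galt4, a galactosyltransferase next to Upk1b) and 2 fell (Cox6b1, a cytochrome oxidase subunit next to Upk1a, and Igsf11, an adhesion protein next to Upk1b). Ivl, which encodes involucrin and is the nearest counted gene on the other side of Sprr1a from Sprr1b, had 4, 0 and 7 counts on day 0 and 10, 11 and 12 counts on day 21 and was not called.

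The uroplakins are described by their roles in the plaque. Upk1a (ENSMUSG00000006313.5, chr7:30603092-30612847, minus strand), the tetraspanin partner of Upk2, had 17, 54 and 62 counts on day 0 and 21, 17 and 31 counts on day 21. Its level was 4.18 ± 2.35 CPM (SD, n = 3) on day 0 and 1.46 ± 0.442 CPM on day 21, a log2 fold change of -1.51 (SE 0.47). The groups overlapped, since day-0 replicate 1, at 1.70 CPM, lay within the day-21 range. Its call was lost when day-0 replicate 2 or 3 or day-21 replicate 1 or 2 was left out, with log2 fold changes from -1.52 to -1.11. With all mice kept, it was also lost when libraries were scaled by their totals alone (-1.12).

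Upk2 (ENSMUSG00000041523.3, chr9:44452715-44454976, minus strand) had the lowest mean of the 5 uroplakins per kb in both groups, with mice that overlapped those of the others. It had 2, 13 and 19 counts on day 0 and 11, 9 and 7 counts on day 21, and its first day-0 mouse was under the floor of detection. Its log2 fold change was -0.89 (SE 0.65).

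Upk1b (ENSMUSG00000049436.5, chr16:38773184-38800328, minus strand), the tetraspanin partner of Upk3a, had 12, 22 and 41 counts on day 0 and 46, 11 and 36 counts on day 21. Upk3a (ENSMUSG00000022435.6, chr15:85017141-85022547, plus strand), which spans the membrane once and reaches into the cytoplasm, had 7, 43 and 52 counts on day 0 and 30, 24 and 67 counts on day 21. Both pairs of groups overlapped along most of their range. The log2 fold changes were -0.25 (SE 0.59) for Upk1b and -0.32 (SE 0.59) for Upk3a, each smaller than its standard error, and both changed sign with the choice of mice and scaling. Without day-0 replicate 3 they were 0.38 and 0.20, with libraries scaled by their totals alone 0.13 and 0.06, and Upk1b was at 0.18 without day-21 replicate 2.

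Upk3b (ENSMUSG00000042985.7, chr5:136038496-136046487, plus strand) had the highest uroplakin level on day 0 in CPM, though not per kb, since its exons are the longest. It had 14, 59 and 83 counts on day 0 and 50, 33 and 53 counts on day 21, with a log2 fold change of -0.76 (SE 0.51). The relative Upk3bl, which is its neighbour, had between 1 and 8 counts in each library and was not tested. Together the 5 uroplakins held 52, 191 and 257 counts on day 0 and 158, 94 and 194 counts on day 21. Their summed level was 15.8 ± 10.6 CPM (SD, n = 3) on day 0 and 9.54 ± 3.43 CPM on day 21, a log2 ratio of -0.73, which was -1.14 without day-0 replicate 1 and -0.13 without day-0 replicate 3.

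Per kb of exon the uroplakins could not be put in order within a group, since the mice of neighbouring genes overlapped. On day 0 the means ran from 2.94 CPM per kb for Upk1a and 2.93 for Upk3a to 1.40 for Upk3b, 1.15 for Upk1b and 0.993 for Upk2. On day 21 they ran from 2.33 CPM per kb for Upk3a to 1.03 for Upk1a, 0.974 for Upk1b, 0.825 for Upk3b and 0.536 for Upk2. Nccrp1, at 1.12 CPM per kb on day 21, had come down into the range of the uroplakins.

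Day-0 replicate 1 was the lowest of the day-0 mice for all 5 uroplakins, against 33.4% of all genes tested, and day-0 replicate 3 was the highest. The ratio of the highest to the lowest day-0 mouse ran from 3.51 for Upk1b to 9.76 for Upk2, and on day 21 from 1.79 for Upk3b to 4.96 for Upk1b. Over the lists this was not general, since replicate 1 was the lowest day-0 mouse for 6 of 17 urothelial layer genes (35.3%) and 5 of 9 papilla genes (55.6%). The order of the day-0 mice seen in the uroplakins was also that of Psca, a surface antigen of urothelium, with 4.00, 11.3 and 29.5 CPM. It was also that of Snx31, a sorting nexin that escorts uroplakins to degradation, with 3.40, 11.9 and 15.1 CPM. Psca and Snx31 are singled out here after their values were seen.

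Genes of other compartments were compared in the same mice. The papilla and inner medulla list, whose tissue borders the pelvis, summed to 1268, 1353 and 1890 CPM in the 3 day-0 mice and to between 907 and 1005 CPM on day 21. Akr1b3, the aldose reductase of that list, had 47.9, 128 and 282 CPM on day 0 and between 79.2 and 89.8 CPM on day 21. Slc14a2 and Fxyd4 of that list ran in the same day-0 order, at 56.0, 83.9 and 105 CPM and at 12.3, 25.8 and 32.1 CPM. These genes were singled out after their values were seen. Replicate 1 was the lowest day-0 mouse for 5 of the 9 genes of the list, and others ran in other orders. The part of the sampled region in the uroplakin values was not tested. Without day-0 replicate 1, Upk1a was at -1.90, Upk2 at -1.38, Upk3b at -1.21, Upk3a at -0.81 and Upk1b at -0.58 on the log2 scale, and 5 of the 8 barrier genes were called in place of 4. Without day-0 replicate 3, Upk1a was at -1.11, Upk2 at -0.22, Upk3b at -0.16, Upk3a at 0.20 and Upk1b at 0.38, and 3 of the 8 were called.

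Most of the tested genes that mark the layers of the urothelium were higher on day 21. Of the 17 tested, 11 rose (64.7%, beside 19.6% of all genes called higher). The other 6 were not called, and the median log2 fold change was 1.57. Cd44, an adhesion receptor of basal cells, went from 3.09 ± 0.675 CPM to 66.3 ± 16.1 CPM (SD, n = 3; log2 fold change 4.41, SE 0.23). Krt19 went from 6.84 ± 1.25 to 52.6 ± 9.39 CPM (log2 fold change 2.94, SE 0.19). Col17a1, a hemidesmosomal collagen of basal cells, had 2, 1 and 0 counts on day 0 and 50, 84 and 44 counts on day 21. Its day-21 level was at least 13.1-fold higher than the floor of 3 counts per library, and it was tested only through its day-21 counts. Itga6, at -0.10, and Psca, at -1.35, were not called, and Psca was called lower without day-0 replicate 1 (-1.82). Many of these genes are also made by other kidney epithelia, and their part in urothelium was not tested.

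Krt20 is a keratin of the umbrella cells that also make uroplakins. It had 160, 3 and 5 counts on day 0 and 814, 892 and 1020 counts on day 21, and needed the latter to enter the comparison. Krt20 rose by 3.40 on the log2 scale (SE 0.83, adjusted p = 0.0073 edgeR's quasi-likelihood test, Benjamini-Hochberg). Day-0 replicate 1, the lowest day-0 mouse for each uroplakin, was the highest day-0 mouse for Krt20. Without it the log2 fold change was 7.24. Without day-0 replicate 2 it was 2.79, and DESeq2 did not call Krt20 (adjusted p = 0.057). The part of umbrella cells in the Krt20 values of these kidneys was not tested. Krt5, a basal keratin chosen after its values were seen, had 4, 32 and 30 counts on day 0 and 23, 31 and 41 counts on day 21, with a log2 fold change of -0.04 (SE 0.55).

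**Figure D3:**
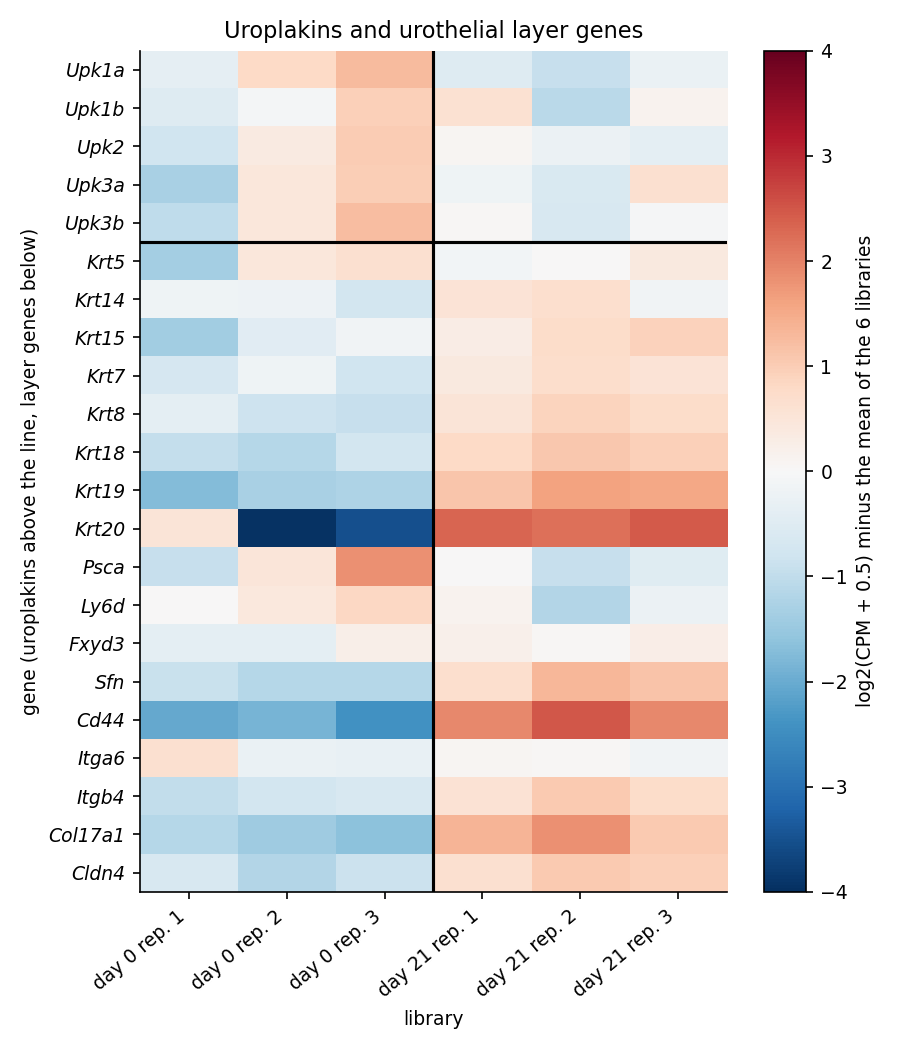
Level of the 5 uroplakins and the 17 tested urothelial layer genes in each of the 6 libraries, as log2(CPM + 0.5) minus the mean of the 6 libraries, with red above and blue below that mean. The uroplakins change along the day-0 mice, from low in replicate 1 to high in replicate 3, whereas Cd44, Krt19 and Col17a1 change between the groups and Krt20 is low only in day-0 replicates 2 and 3.

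Genes that carry uroplakins to and from the membrane were mixed. Of 11 tested, 3 rose and 1 fell (36.4% called, near the 35.1% of all genes), with a median log2 fold change of -0.11. Sytl2, a partner of the Rab27 proteins, rose by 2.58 (SE 0.19), from 22.6 ± 4.48 to 135 ± 30.7 CPM (SD, n = 3), and Rab27b, which acts in the release of uroplakin vesicles, rose by 1.17, a call lost without day-21 replicate 3 (1.00). Mal2 rose by 1.13, and Mal, at 0.43, and Myo5b, at -0.48, were not called. The gene that fell was Snx31, by 1.82 on the log2 scale (SE 0.48, adjusted p = 0.011 edgeR's quasi-likelihood test, Benjamini-Hochberg), with groups that overlapped through day-0 replicate 1, as for Upk1a.

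Transcription factors of urothelial and squamous programmes were called in 7 of 18 cases (38.9%, near the 35.1% of all genes), 5 higher and 2 lower, with a median of 0.36. The split was 9 higher and 1 lower with libraries scaled by their totals alone, and 3 and 3 without day-0 replicate 2. Elf3, an ETS factor of maturing urothelium, rose by 1.41 (SE 0.16) and Tfap2a, of basal epithelia, by 1.00. Zfp750, a regulator of terminal epidermal differentiation, fell by 1.08 (SE 0.24) and Rxra, the partner of PPAR gamma, fell by 0.82 (SE 0.11), though not far enough to be called with libraries scaled by their totals alone (-0.43). Tfap2b was not called.

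Of 32 other genes of the cornified envelope, 11 had enough counts to be tested, and 6 (Flg2, Cnfn, Csta1, Abca12, Klk5 and Klk7) had no count in any mouse. Among the 11, 4 rose and 1 fell (45.5% called, beside 35.1% of all genes), with a median of 0.29. Anxa1, which binds phospholipids and is cross-linked into the envelope, went from 13.2 ± 2.51 to 53.7 ± 10.4 CPM (SD, n = 3; log2 fold change 2.03, SE 0.19). Sbsn and Cdsn, both late epidermal genes, rose by 2.55 and 2.20 from levels near the floor, with Sbsn at 11, 1 and 3 counts on day 0 and 46, 41 and 47 counts on day 21. Sbsn was at 3.86 without day-0 replicate 1 and Cdsn at 2.84 without day-0 replicate 2. Both needed their day-21 counts to be tested. Ecm1 fell by 1.06. Tgm1, the transglutaminase that joins small proline-rich proteins to the envelope, was at 27.6 ± 13.6 CPM on day 0 and 30.8 ± 9.60 CPM on day 21 and was not called, and neither was envoplakin (Evpl), at 0.29.

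The desmosome list gave 2 of 7 tested genes called (28.6%, beside 35.1% of all genes), both higher, with a median of 0.21. Dsg2 rose by 1.48 (SE 0.21) and Dsc2 by 1.31 (SE 0.25), while Jup and Dsp were not called. Dsc1 had no count, and Dsg1a, Dsg1b, Dsg3, Dsc3 and Pkp1 had too few counts to be tested. The calls therefore say nothing about these other forms. The tetraspanins, the family of Upk1a and Upk1b, gave 13 of 27 called (48.1%, beside 35.1% of all genes). Of these, 9 were higher and 4 lower, and the list had a median of 0.38. The split was 12 higher and 1 lower under upper-quartile scaling, 15 and 1 with totals alone, and 9 and 1 without day-0 replicate 2. Cd53 rose by 2.58, Tspan32 by 2.01 (2.66 without day-0 replicate 3), Cd37 by 1.42 and Tspan8 by 1.30. Leukocyte genes are among these, Cd53 and Cd37 for example, and Cd63 (0.00) and Cd81 (-0.07) were not called.

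**Figure D4:**
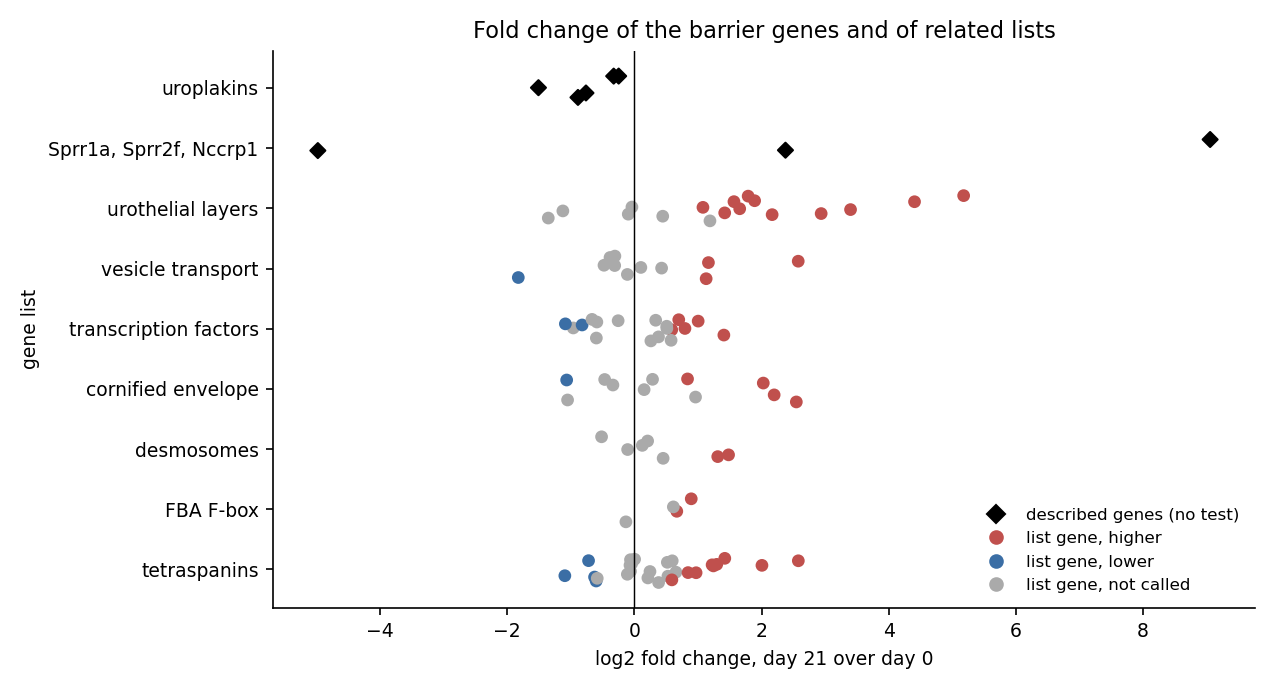
Log2 fold change, day 21 over day 0, of the 8 barrier genes (black, no test) and of the tested genes of 7 related lists, with red for genes called higher, blue for genes called lower and grey for genes not called. The urothelial layer genes lie mostly to the right, with 11 of 17 called higher, and the uroplakins to the left of 0, and the value of 9.05 for Sprr2f depends on the prior count because its day-0 libraries are under the floor.

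Markers of other cells that border the pelvis or the capsule were read beside these genes, and over all genes 35.1% were called. Of the 6 mesothelial markers, 3 were tested, Aldh1a2 and Msln rose by 3.58 and 2.16, Gpm6a fell by 1.48, and Muc16 and Bnc1 had no count. Their sum ran from 155 to 183 CPM on day 0 and from 103 to 162 CPM on day 21, mostly through Gpm6a. Upk3b, at -0.76, is set here beside Msln, which had 4, 8 and 8 counts on day 0 and 38, 20 and 76 counts on day 21 and lost its call without day-21 replicate 3 (adjusted p = 0.055). The 9 smooth muscle markers, 8 of them tested, summed to between 265 and 274 CPM on day 0 and between 333 and 411 CPM on day 21, with 3 higher (Tagln by 0.73) and 1 lower (Myh11, which fell by 0.79 and was not called with totals alone). The 9 leukocyte markers summed to between 97.2 and 114 CPM on day 0 and between 236 and 246 CPM on day 21, and of 6 tested 4 rose, Adgre1 and Ptprc among them, while the neutrophil genes S100a8 and S100a9 fell by 1.97 and 1.99. Of the 9 papilla markers, 5 fell (55.6%, beside 15.5% of all genes called lower), among them Aqp4 by 2.62 and Slc6a12 by 2.37. The part of any of these cells in the values of the barrier genes was not tested.

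The genes whose profile over the 6 libraries was most like that of the barrier genes were found among 16432 genes with a mean of at least 10 counts, as the smallest root mean square difference in centred log2(CPM + 0.5). For the summed uroplakins these were Gm38056 (0.22), Nat8f5 (0.27), Igf2bp1 (0.28), Nrip3 (0.30) and Csgalnact1 (0.30), none of them on the urothelial lists. The sum of Sprr1a and Sprr2f was 5.31, 5.10 and 10.7 CPM on day 0 and 64.3, 50.3 and 59.0 CPM on day 21. Most like it were Fn1 (0.15), which encodes fibronectin, the mitotic kinase gene Bub1 (0.15), Ifi213 (0.16), Slfn9 (0.17) and Gdf15 (0.17), a stress-induced cytokine. That profile is mostly the difference between the groups, which was in view when Sprr1a and Sprr2f were chosen. Likeness to it largely restates that difference and is not a separate result.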

How the data were processed

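Kidney RNA from 3 day-0 and 3 day-21 mice was sequenced as paired reads of 150 bases. The authors deposited raw counts per gene for each mouse, without normalization. The submitters' processing notes name TopHat and mm10, and the counting program and its strand setting are not given in the sources used here. All 55450 identifiers matched GENCODE M21 (GRCm38), which supplied positions and exons. Promoters were those of RefSeq on GRCm38.p6. The members and lists were chosen with earlier results of these data known.

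The software was edgeR 4.0.16 under R 4.3.3, with DESeq2 1.42.0 and limma 3.58.1 for alternatives, and Python 3.11.15 for sequences and figures. Genes passed filterByExpr (minimum count 10, minimum total 15), and TMM factors scaled the libraries. A quasi-likelihood model in edgeR without a block compared day 21 with day 0 in 16592 genes. Genes low on day 0, among them Sprr2f, Sprr2g, Col17a1, Krt20, Sbsn, Cdsn and Msln, needed their day-21 counts to pass this filter. Calls needed a Benjamini-Hochberg adjusted p below 0.05 together with a change of more than 1.5-fold, the study's limits. The fits were also checked on simulated data. No pair of mice was a duplicate (chi-square per gene from 6.78 to 23.6).

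The genes named are the 8 members, the other uroplakin and Sprr genes, and from each list up to 4 called genes with the largest change and groups apart, up to 2 uncalled genes with the highest level and those at 0, plus the nearest counted neighbours and the 5 genes most like each summed profile, apart from an item that is not reported here. Others are named as chosen after their values were seen. Vamp7, of the vesicle list, could not be matched by symbol and was not used here. Alternatives were other scalings, filters, tools and thresholds, a block for replicate number, libraries without mitochondrially encoded genes, and each mouse left out.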

Additional observations from a re-analysis of the deposited data

How the results depend on the processing

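Of 224 counts of called genes (14 counts under 16 alternatives), 208 stayed within 1.5 times their value. With calls limited to adjusted p below 0.01 and more than 2-fold change, the calls over all genes went from 5822 to 3172, vesicle transport to 2, transcription factors to 3, tetraspanins to 7, and smooth muscle and FBA F-box genes to 0. Of these last lists, 5 of 8 and 2 of 4 genes had an unadjusted p under 0.05 with edgeR, and DESeq2 and limma-voom also gave 0 at that threshold. With a mean of at least 50 counts, the cornified envelope list had 3 calls and the FBA list 1, where fewer genes were tested. Scaling by library totals alone gave 4 desmosome calls, and DESeq2 gave 1 FBA call.

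The barrier genes were chosen with their differences in view, so their calls over the fits are a description and support nothing. Upk1a was called in 10 of 16 fits, was not called in 5 and was not tested in 1, and Upk3b was called without day-0 replicate 1 only. Leaving out each mouse in turn gave between 3 and 5 calls among the 8 genes, between 5128 and 5920 over all genes, between 1 and 2 in the FBA list, and a log2 ratio of the summed uroplakins between -1.14 and -0.13. The fitted log2 fold change of Sprr2f ran from 6.90 with a prior count of 2 to 11.22 with a mouse left out, since its day-0 counts are at the floor.

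With a replicate block, 5758 genes were called, 4 of them barrier genes, and the FBA list had 1 call after Fbxo2 lost its own (adjusted p = 0.054), with no other count moved by over 1.5 times. Same-numbered mice of the groups correlated at -0.02, 0.17 and 0.09 in their deviations, so the numbers were not taken to pair the samples, and not every mouse correlated best with its own number. With 3 mice a group, uroplakin counts between 2 and 83 a library limit the precision of their fold changes.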
